A study of Mus musculus with 6 samples.

Results

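The insulin-like growth factor (IGF) system was followed through the 9 of its genes chosen by symbol, which are the ligand gene Igf1, the receptor genes Igf1r and Igf2r, and 6 genes of IGF binding proteins, Igfbp2 to Igfbp7. All 9 were among the 13283 genes of the deposited RNA-seq table, and all 9 passed the filter on low values that left 12507 genes for testing. The source of every library was BAT cells, an immortalized line of mouse brown preadipocytes that stably expresses Cas9, differentiated in culture with a cocktail of insulin, dexamethasone, isobutyl-methylxanthine, T3, indomethacin and rosiglitazone. The 3 Scr libraries are labelled WT and, by the study's methods, come from cells transduced with scrambled sgRNA. The 3 MICT1 KO libraries come from CRISPR-Cas9 knockout pools, selected as GFP-positive cells after lentiviral delivery of sgRNA against the gene of the microprotein MICT1, and the labels do not tell which of the sgRNAs a library carries. Every culture, Scr and MICT1 KO alike, received 10 µM forskolin for 6 h at day 6 of differentiation, so no library shows the IGF genes without cAMP stimulation. All libraries derive from 1 cell line. The insulin in the medium was shared by both groups.

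IGF-I signals through the IGF-I receptor, a tyrosine kinase closely related to the insulin receptor, and promotes growth, survival and, in preadipocytes, differentiation. The receptor encoded by Igf2r does not signal in this way. It is the cation-independent mannose 6-phosphate receptor, which carries lysosomal enzymes to lysosomes and clears IGF-II from the cell surface. The binding proteins are secreted, hold IGFs outside the cell and can either withhold them from the receptor or deliver them, and proteases that cut the binding proteins release the ligand. Igfbp7 encodes a related secreted protein that binds IGFs weakly.

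The binding protein genes moved in opposite directions. Igfbp4 was 5.80-fold lower and Igfbp2 2.27-fold lower in MICT1 KO than in Scr cells, with smaller falls of Igfbp3 and Igfbp5, whereas Igfbp7 was 2.49-fold and Igfbp6 1.87-fold higher. Among the receptors, Igf1r rose 1.41-fold. Igf1 itself and Igf2r did not pass the test. By limma-trend with Benjamini-Hochberg adjustment over all genes tested, 4 of the 9 genes were lower and 3 were higher with an adjusted p under 0.05. This share has to be read against a table in which 56.9% of all genes tested passed, 28.3% lower and 28.5% higher, so the number of IGF genes called is not in itself particular to them. The median log2 fold change was 0.077 over the 9 genes and -0.0053 over all genes tested.

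The sequences just upstream of the start site are shown for the 3 genes that changed at least 2-fold, because these are the promoters beside which the largest changes of transcript level were seen. They are the 250 bases before the RefSeq start on GRCm38.p6, written 5′ to 3′ on the strand of the gene. Capitals mark matches, on either strand, to 4 short motifs that were searched. The core of the cAMP response element was searched as TGACG. The TATA box, a core promoter element, was searched as TATAAA. The GC box, which factors of the Sp family bind, was searched as GGGCGG. The E-box of basic helix-loop-helix factors was searched as CACGTG. The windows lie at chr11:99040994-99041243 on the plus strand for Igfbp4, chr1:72824230-72824479 on the plus strand for Igfbp2 (the upstream one of its starts in RefSeq) and chr5:77408046-77408295 on the minus strand for Igfbp7.
Igfbp4: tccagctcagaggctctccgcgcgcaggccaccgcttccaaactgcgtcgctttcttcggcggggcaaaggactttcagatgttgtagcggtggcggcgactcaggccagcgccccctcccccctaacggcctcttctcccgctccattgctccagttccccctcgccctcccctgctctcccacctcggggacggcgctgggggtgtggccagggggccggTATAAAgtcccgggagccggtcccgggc
Igfbp2: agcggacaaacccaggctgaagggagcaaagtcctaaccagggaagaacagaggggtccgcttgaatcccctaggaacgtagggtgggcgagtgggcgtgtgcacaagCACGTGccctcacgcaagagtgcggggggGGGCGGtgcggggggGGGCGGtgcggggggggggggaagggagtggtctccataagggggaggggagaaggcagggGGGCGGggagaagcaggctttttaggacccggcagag
Igfbp7: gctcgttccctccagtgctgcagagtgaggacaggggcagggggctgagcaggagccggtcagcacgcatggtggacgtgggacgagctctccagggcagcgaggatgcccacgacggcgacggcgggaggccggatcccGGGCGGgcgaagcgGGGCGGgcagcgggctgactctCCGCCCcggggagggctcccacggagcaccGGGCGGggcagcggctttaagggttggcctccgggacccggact
The Igfbp4 window held 1 TATA box, starting 28 bases before the start site, and no match to the other motifs. The Igfbp2 window held 3 GC boxes and 1 E-box, and the Igfbp7 window held 4 GC boxes. No cAMP response element core was found in these windows, nor in those of Igf1, Igf1r, Igfbp3, Igfbp5 and Igfbp6, while the window of Igf2r held 2. One of these shares bases with an E-box, and 2 of the 3 GC boxes of Igf2r adjoin each other. Igfbp6 had 1 TATA box on the opposite strand, 148 bases before the start. Over all 32851 RefSeq promoter windows of this length, the cAMP response element core was found in 17.8%, the TATA box in 12.4%, the GC box in 32.7% and the E-box in 6.02%. Over the 13410 windows of genes in the table the shares were 26.3%, 6.67%, 57.2% and 8.28% in the same order. A match describes the letters of a window and is not evidence of binding.

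The normalized values, read here as estimated reads divided by a size factor, summed to between 16104616 and 16616825 per library. Pearson correlations of log2(value + 1) across genes, which are not independent replicates, ran from 0.9865 to 0.9898 within a group. Between groups they ran from 0.9288 to 0.9402. The most abundant listed gene took 1.92% of Scr replicate 2 (Rn45s, a ribosomal RNA precursor) and between 0.605% and 0.847% of the other libraries. The level of the targeted gene was not analysed here, which leaves the knockout label unchecked. Of 10 adipocyte markers 9 were tested, and 9 were lower in MICT1 KO, with a summed level of 7276 to 8720.1 CPM (values scaled to a fixed library sum) in Scr and 856 to 1249 CPM in MICT1 KO libraries. The largest falls were those of Adipoq, Plin1 and Cidec, with log2 fold changes of -6.66, -5.93 and -5.51. Of 10 preadipocyte and fibroblast markers 6 were tested, 4 higher and 2 lower, beside 28.5% higher and 28.3% lower over all genes tested. The summed level was 1338 to 1475 CPM in Scr and 2623 to 2877 CPM in MICT1 KO. Most of this sum was Col1a1, with mean values of 17955 in Scr and 30595 in MICT1 KO. The mean of Dcn went from 365 to 9707. Pdgfra, 1 of the 2 lower genes, lost its call with library size scaling. That call was also lost without Scr replicate 1, Scr replicate 2, KO replicate 1 or KO replicate 2. Among these markers Dcn, the gene of a matrix proteoglycan, rose most (log2 fold change 4.75), Ly6a also rose (1.39), and Dlk1, which encodes preadipocyte factor 1, fell (-3.47). Of 7 thermogenic markers only 1, Ucp1, was tested. Ucp1 was low in both groups, with values of 20.8, 24.1 and 30.5 in Scr against 1.91, 1.05 and 9.33 in MICT1 KO libraries. Ppargc1a, left out by the filter on low values, had overlapping groups. Its values were 8.90, 5.56 and 2.04 in Scr against 5.72, 15.8 and 1.04 in MICT1 KO libraries. Macrophage markers lay at 6.33 to 9.20 CPM in Scr and 7.91 to 9.86 CPM in MICT1 KO in sum over the 3 that were analysed of 8. Of 5 endothelial markers only 1, Cdh5, was analysed. It was low in both groups and higher in MICT1 KO, at 0.369 to 0.725 CPM in Scr and 1.59 to 2.03 CPM in MICT1 KO. The adipocyte and fibroblast markers, and this 1 low endothelial marker, thus differed between the same groups as the IGF genes described below. The part of these markers in those results was not tested. In bulk RNA a smaller number of adipocytes and a smaller amount of a transcript per adipocyte cannot be told apart.

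**Figure D1:**
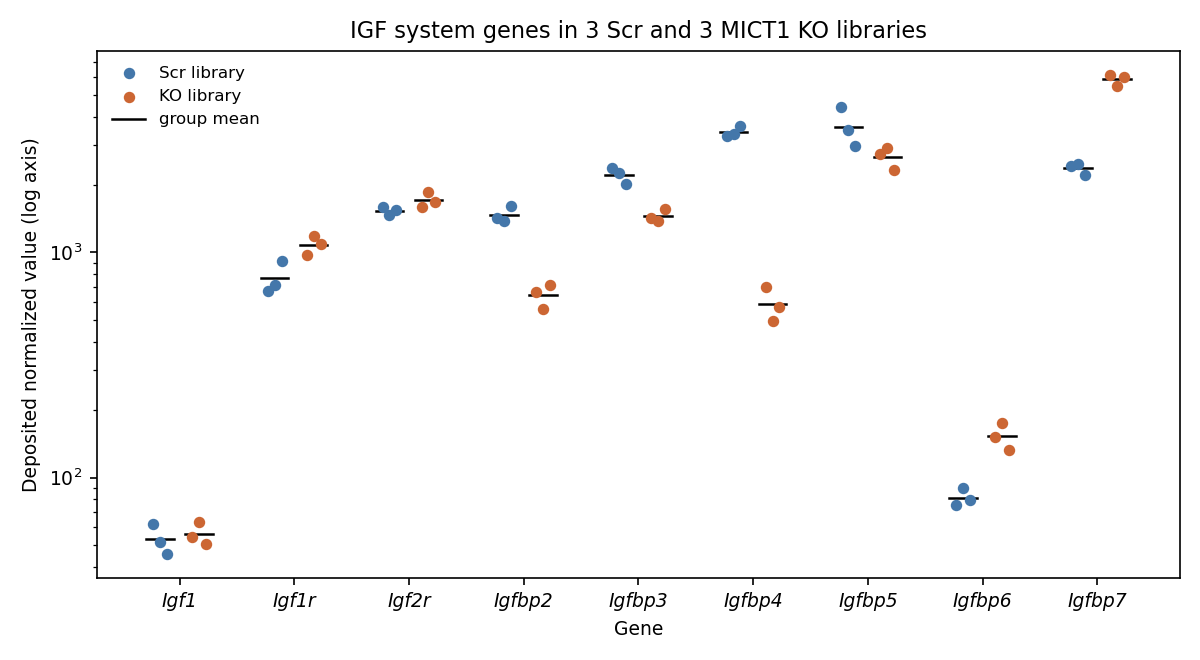
Deposited normalized value of each IGF system gene (log axis) in the 3 Scr (blue) and 3 MICT1 KO (orange) libraries, with the group mean as a black line. The groups are apart for 7 genes and overlap for Igf1 and Igf2r, and Igfbp4 and Igfbp7 show the widest gaps.

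Igf1, the gene of the ligand, was the lowest of the 9 in every library. It lies on chromosome 10 from 87858265 to 87937042 (GRCm38, GENCODE M21). Its normalized values were 62.3, 51.9 and 45.8 in the Scr libraries against 54.3, 63.2 and 50.8 in the MICT1 KO libraries. The groups overlapped, with the highest value in a MICT1 KO and the lowest in a Scr library. The log2 fold change was 0.08 (standard error, SE, 0.26, limma-trend adjusted p = 0.817), and the 95% confidence interval of the ratio of MICT1 KO to Scr ran from 0.728 to 1.53. With 3 libraries per group, a change of a size within this interval could not be told from none. The direction itself was not stable, since leaving out Scr replicate 3 gave -0.025 and leaving out KO replicate 2 gave -0.010. The 5 genes whose pattern over the 6 libraries was most like that of Igf1, by the root mean square difference of mean-centred log2(value + 1), were Unkl, Sec16a, Wdr90, Tubgcp6 and Gpatch2l. Their differences from Igf1 lay between 0.0486 and 0.0604, and the median over all genes tested was 0.278. Their adjusted p between the groups (limma-trend) lay between 0.252 and 0.939. The 5 were picked for the smallest differences, so their place below the median was fixed by the choice. Resemblance to a gene that did not pass also made a high adjusted p likely. The other ligand, Igf2, was near the floor of the table with values of 10.9, 7.42 and 4.07 in Scr against 17.2, 19.0 and 2.07 in MICT1 KO libraries. Its groups overlapped (log2 fold change 0.38, SE 0.71, limma-trend adjusted p = 0.673).

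Igf1r, the gene of the signalling receptor, was higher in MICT1 KO cells. The gene lies on chromosome 7 from 67952827 to 68233668. Its values were 673, 718 and 919.9 in Scr against 977, 1181 and 1095 in MICT1 KO libraries. The lowest MICT1 KO value stood just above the highest Scr value, that of replicate 3, which lay apart from the other two Scr libraries. The mean rose from 770.3 ± 132 to 1084 ± 102 (SD, n = 3 each), and the log2 fold change was 0.50 (SE 0.10, limma-trend adjusted p = 0.000233). Leaving out any 1 library gave values between 0.41 and 0.64. The insulin receptor gene Insr went the other way, with values of 1787, 1810.4 and 1775 in Scr against 923, 939.8 and 883 in MICT1 KO libraries and a log2 fold change of -0.97 (SE 0.065, limma-trend adjusted p = 6.38e-11). Per length, the level of Igf1r in RPKM, which is CPM divided by the merged exon length in kilobases, was 0.352 ± 0.0628 of that of Insr in Scr and 0.970 ± 0.0897 in MICT1 KO cells (SD, n = 3 each). In Scr cells the insulin receptor transcript was thus the more abundant of the pair in every library, whereas in MICT1 KO cells the ratio was 0.867, 1.03 and 1.01.

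Igf2r, which encodes the mannose 6-phosphate and IGF-II receptor, did not pass the test. It lies on chromosome 17 from 12682406 to 12769664. The values were 1587, 1469 and 1544 in Scr against 1585, 1854 and 1682 in MICT1 KO libraries. KO replicate 1 fell within the Scr range and the other two MICT1 KO libraries lay above it. The log2 fold change was 0.15 (SE 0.069, limma-trend adjusted p = 0.0638), with an unadjusted 95% confidence interval of the ratio from 1.01 to 1.23. Without KO replicate 1 it passed (0.20, limma-trend adjusted p = 0.0183), and over the alternatives its adjusted p ran from 0.0183 to 0.292. The antisense transcript Airn, which starts inside Igf2r and shares none of its exon bases, had values of at most 12.6. Whether reads of Airn from outside its exons were counted for Igf2r cannot be told from these values, since the use of strand in the counting is not given.

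**Figure D2:**
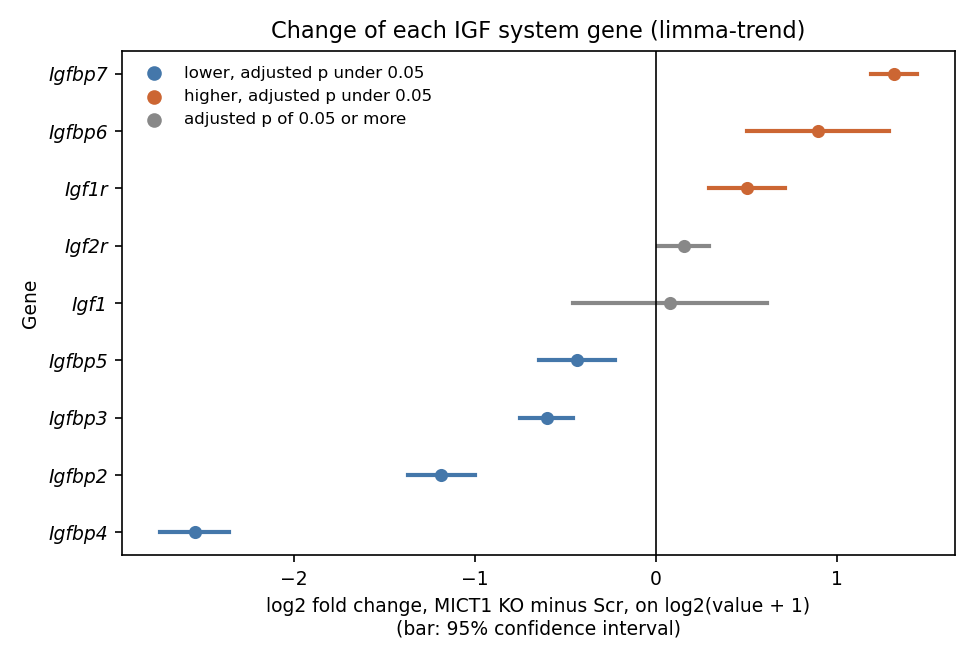
Log2 fold change of each IGF system gene between MICT1 KO and Scr cells on the log2(value + 1) scale, with its 95% confidence interval as a bar (limma-trend). Igfbp4 lies farthest to the left at -2.55 and Igfbp7 farthest to the right at 1.31, and the interval of Igf1 spans 0.

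Igfbp4 fell most of the 9 genes. It encodes a binding protein that inhibits IGF action and is cut by the protease PAPP-A, and it lies on chromosome 11 from 99041244 to 99054392. Its values were 3279, 3348 and 3642 in Scr against 703, 497 and 570.1 in MICT1 KO libraries. Every MICT1 KO library was far below every Scr library, and the spread within either group was small beside the gap. The mean went from 3423 ± 193 to 590.0 ± 104 (SD, n = 3 each), and the log2 fold change was -2.55 (SE 0.092, limma-trend adjusted p = 2.13e-15). By the size of its change it ranked 240 among the 12507 genes tested. It was thus among the 5.76% of genes that were at least 2-fold lower with an adjusted p under 0.05.

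Igfbp2 was the other binding protein gene at least 2-fold lower. Its protein is a binding protein known to be secreted by white preadipocytes as they differentiate. The values were 1427, 1374 and 1607 in Scr against 665, 558 and 719 in MICT1 KO libraries. The highest MICT1 KO value was well below the lowest Scr value. The log2 fold change was -1.19 (SE 0.090, limma-trend adjusted p = 4.13e-10). Igfbp2 lies on chromosome 1 from 72824503 to 72852474, end to end with Igfbp5, which occupies 72857932 to 72874884 on the opposite strand. They are 5457 bases apart, and 0 annotated genes lie in the gap.

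Igfbp5, whose protein binds IGFs and also matrix components, had the smallest fall of the 4 lower binding protein genes. Its values were 4418, 3503 and 2957 in Scr against 2729, 2912 and 2321 in MICT1 KO libraries. The groups were barely apart, since the highest MICT1 KO value lay just under the lowest Scr value. The log2 fold change was -0.44 (SE 0.10, limma-trend adjusted p = 0.000986). Without Scr replicate 1, the highest library, it was -0.28 (limma-trend adjusted p = 0.0116).

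Igfbp3, the gene of the main IGF carrier of serum, lies on chromosome 11 from 7206086 to 7213923. It had values of 2369.9, 2254 and 2019.9 in Scr against 1419.6, 1386 and 1566 in MICT1 KO libraries. The groups were apart, with a fall of the mean from 2215 ± 178 (SD, n = 3) to 1457 ± 96.0 (SD, n = 3). The log2 fold change was -0.60 (SE 0.070, limma-trend adjusted p = 3.00e-07), or 1.52-fold.

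Igfbp7, on chromosome 5 from 77349240 to 77408041, rose most. Its values were 2430.2, 2478 and 2204 in Scr against 6163, 5506 and 6027 in MICT1 KO libraries. Each MICT1 KO library was more than 2-fold above every Scr library, and the mean went from 2371 ± 146 (SD, n = 3) to 5899 ± 347 (SD, n = 3). The log2 fold change was 1.31 (SE 0.061, limma-trend adjusted p = 1.35e-13). It was among the 7.99% of genes at least 2-fold higher with an adjusted p under 0.05. Igfbp7 shares 85 exon bases with Polr2b, a subunit gene of RNA polymerase II on the opposite strand. Polr2b was lower in MICT1 KO (log2 fold change -0.17, SE 0.057, limma-trend adjusted p = 0.0125), the direction opposite to that of Igfbp7. Whether the counting used strand is not given in the sources used here.

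Igfbp6, whose protein prefers IGF-II over IGF-I, lies on chromosome 15 from 102144362 to 102149511 and was the least abundant binding protein gene in the Scr libraries. Its values were 75.2, 89.9 and 79.4 in Scr against 151, 175 and 133 in MICT1 KO libraries. The groups were apart, and the log2 fold change was 0.89 (SE 0.19, limma-trend adjusted p = 0.000402). Over the 9 genes the groups did not overlap for 7, in a table where this holds for 62% of the genes tested.

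Per length, the make-up of the binding protein transcripts shifted toward Igfbp7. In Scr libraries the order by RPKM, with merged exon lengths, was Igfbp7 at 119.8 ± 7.45 (SD, n = 3), then Igfbp2 at 48.6 ± 4.20, Igfbp4 at 47.4 ± 2.58, Igfbp3 at 43.2 ± 3.82 and Igfbp5 at 36.9 ± 7.98, and these 4 did not differ from their neighbours in the order beyond the range of the libraries. Igf2r (10.1), Igfbp6 (4.47), Igf1r (2.80) and Igf1 (0.329) followed, each with a range clear of the next. In MICT1 KO libraries Igfbp7 stood at 298.9 ± 16.6 RPKM (SD, n = 3), followed by Igfbp3 at 28.5 ± 1.97, Igfbp5 at 27.1 ± 3.05 and Igfbp2 at 21.5 ± 2.72, and the ranges of neighbours among these 3 again overlapped. Igfbp4 was the third in Scr and the seventh in MICT1 KO, at 8.18 ± 1.40 RPKM (SD, n = 3), where its range overlapped that of Igfbp6. This order depends on the length used. With the longest annotated transcript, a choice made after seeing the data, Igfbp4 was the fourth in Scr at 54.6 RPKM, behind Igfbp3 at 55.9 RPKM, and the sixth in MICT1 KO at 9.43 RPKM, ahead of Igfbp6 at 8.42 RPKM. With that length the ranges of Igfbp6 and Igf1r overlapped in Scr, at 4.20 to 4.87 and 3.66 to 4.92 RPKM, while Igfbp2 stood clear of the gene after it in Scr and Igfbp5 stood clear of Igfbp4. Igfbp7 was the first and Igf1 the last in both groups with either length.

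**Figure D3:**
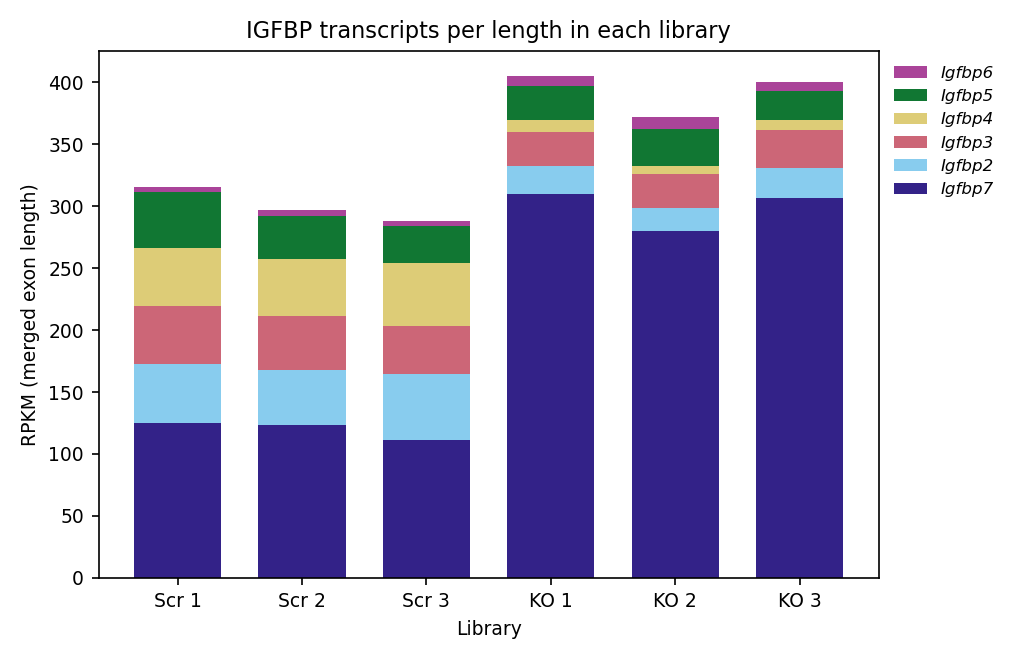
RPKM of the 6 binding protein genes stacked for each library, computed with the merged exon length. The dark blue Igfbp7 segment makes up 38.6% to 41.5% of the stack in the Scr and 75.2% to 76.6% in the MICT1 KO libraries.

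Igfbp7 made up 39.9% ± 1.51 of the summed RPKM of the 6 genes in Scr and 76.1% ± 0.768 in MICT1 KO libraries (SD, n = 3 each). Igfbp4 went from 15.8% ± 1.47 to 2.08% ± 0.277 (SD, n = 3 each), and the ratio of Igfbp7 to Igfbp4 from 2.54 ± 0.286 to 37.0 ± 4.42 (SD, n = 3 each). The summed level of all 6 genes was 300.4 ± 14.0 RPKM in Scr and 392.6 ± 18.0 RPKM in MICT1 KO, but without Igfbp7 it was 181 ± 9.14 and 93.7 ± 1.47 RPKM (SD, n = 3 each). Without Igfbp7 the sum was thus 1.93-fold lower in MICT1 KO, and with it 1.31-fold higher. These levels were not tested, and they depend on the gene length used. With the longest annotated transcript in place of merged exons the share of Igfbp7 was 35.4% in Scr and 72.8% in MICT1 KO.

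The proteases that cut binding proteins, and the inhibitors of these proteases, also moved in both directions. Of 9 such genes 8 were tested, 3 lower and 4 higher in MICT1 KO, beside 28.3% lower and 28.5% higher over all genes tested, and their median log2 fold change was 0.23. Pappa, which encodes the protease PAPP-A that cuts IGFBP-4, had values of 818, 833 and 748 in Scr against 406, 594 and 606 in MICT1 KO libraries. The groups were apart, and KO replicate 1 was the lowest (log2 fold change -0.60, SE 0.12, limma-trend adjusted p = 0.000200). Stc1, the gene of stanniocalcin-1, which inhibits PAPP-A, fell by as much (-0.60, SE 0.071, limma-trend adjusted p = 4.21e-07). Pappa2, a related protease that cuts IGFBP-5 and IGFBP-3, was higher (0.46, SE 0.13, limma-trend adjusted p = 0.00502). Without Scr replicate 1, its lowest library, the change of Pappa2 was 0.30 (limma-trend adjusted p = 0.0463). Adam9, the gene of a membrane metalloprotease, was also higher (0.66, SE 0.056, limma-trend adjusted p = 3.10e-09). Of the 4 higher genes, Htra1 and Adam12, named here after their values were seen, were the less stable. Htra1 kept its call only when Scr replicate 2 was the library left out, and Adam12 lost its call without Scr replicate 2 and without KO replicate 3. The count of higher genes was 2 without KO replicate 3, 4 without Scr replicate 2 and 3 without any other 1 library. The 4 without Scr replicate 2 were not the same 4, since Adam12 lost its call there and Stc2 gained one.

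**Figure D4:**
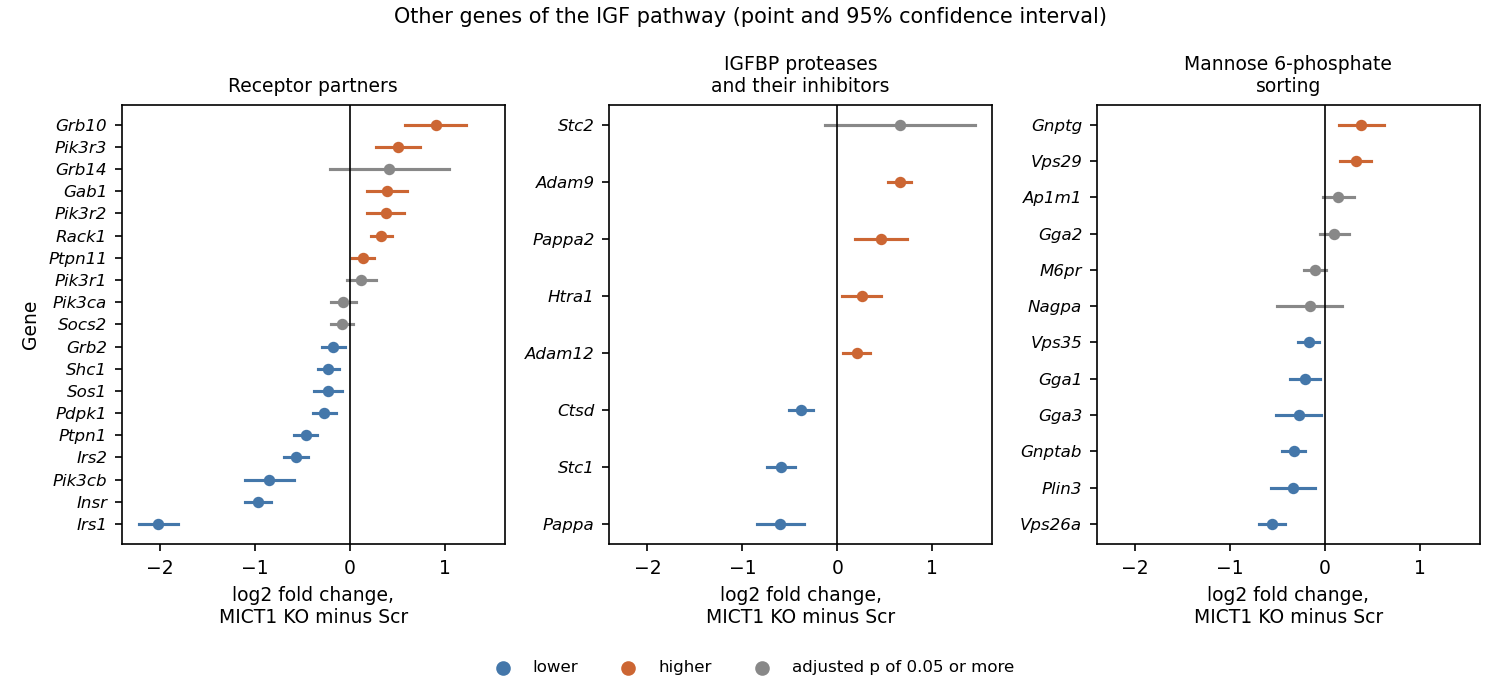
Log2 fold change between MICT1 KO and Scr cells of the tested genes of 3 lists, with 95% confidence intervals (limma-trend). Receptor partners reach from Irs1 at -2.02 to Grb10 at 0.90, and the proteases and sorting genes lie between -0.60 and 0.66.

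Of 20 genes of proteins that act at or just behind the IGF-I and insulin receptors, 19 were tested, 9 lower and 6 higher, with a median log2 fold change of -0.08. Over all genes tested 56.9% passed. The count of lower genes was 7 without Scr replicate 3 and 8 without KO replicate 3. That of higher genes was 5 with the RPKM filter and without Scr replicate 2, Scr replicate 3, KO replicate 2 or KO replicate 3. Ptpn11, 1 of the higher genes, kept its call only when KO replicate 1 was the library left out. Irs1, the gene of a main docking protein of both receptors, fell most, with values of 1184, 1162 and 1379.9 in Scr against 293, 343 and 283 in MICT1 KO libraries (log2 fold change -2.02, SE 0.097, limma-trend adjusted p = 2.52e-13). Irs2, the related docking protein gene, also fell (-0.56, SE 0.060, limma-trend adjusted p = 7.83e-08) and remained the more abundant, at 39.2 RPKM against 2.05 RPKM for Irs1 in MICT1 KO cells. Shc1, an adaptor of the Ras branch, fell slightly (-0.23, SE 0.054, limma-trend adjusted p = 0.00120). Grb10, an adaptor that restrains both receptors, rose from values of 114, 115 and 115 in Scr to 214, 208 and 225 in MICT1 KO libraries (0.90, SE 0.15, limma-trend adjusted p = 3.61e-05). Among the other called genes, named here after their values were seen, Pik3r3 (0.51), Gab1 (0.39) and Pik3r2 (0.38) rose. Pik3cb (-0.85) and Ptpn1 (-0.46) fell.

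Among 12 genes of the mannose 6-phosphate route that Igf2r serves, all tested, 6 were lower and 2 were higher, with a median log2 fold change of -0.16, in a table where 56.9% of genes passed. The count of lower genes was 5 with library size scaling, trimmed mean of M values scaling or limma-voom, and 4 without Scr replicate 1, Scr replicate 2 or KO replicate 2. Vps26a, a subunit gene of the retromer complex that returns the receptor to the Golgi, fell most (-0.56, SE 0.064, limma-trend adjusted p = 2.42e-07). Further retromer subunit genes, named here after their values were seen, went both ways. Vps35 fell slightly (-0.17, SE 0.053, limma-trend adjusted p = 0.00988) and Vps29 rose (0.32, SE 0.079, limma-trend adjusted p = 0.00151). Plin3, whose protein is also known as a cargo adaptor of these receptors, fell (-0.33, SE 0.11, limma-trend adjusted p = 0.0151), but not without Scr replicate 2 or without KO replicate 3 (adjusted p = 0.0978 and 0.0869 from limma-trend). Gnptg, a subunit gene of the enzyme that begins the mannose 6-phosphate tag, rose (0.38, SE 0.11, limma-trend adjusted p = 0.00723). Gnptab, the other subunit gene of this enzyme, named here after its values were seen, fell (-0.33, SE 0.057, limma-trend adjusted p = 4.63e-05). Per length Gnptab was the more abundant, at 28.5 RPKM against 9.80 RPKM for Gnptg in MICT1 KO cells. The other mannose 6-phosphate receptor gene, M6pr, did not pass (-0.10, SE 0.054, limma-trend adjusted p = 0.122, interval of the log2 fold change -0.21 to 0.013). Per length its level was the higher of the pair, with Igf2r at 0.140 ± 0.0103 of M6pr in Scr and 0.167 ± 0.0184 in MICT1 KO cells (SD, n = 3 each).

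Of 10 further genes with a tie to the family, 6 were tested, 2 lower and 2 higher, a share near the 56.9% of all genes tested. Lrp1, which encodes a large endocytic receptor that also binds IGFBP-3, rose (log2 fold change 0.58, SE 0.057, limma-trend adjusted p = 2.71e-08), while Tmem219, the gene of a cell death receptor for IGFBP-3, fell (-0.90, SE 0.17, limma-trend adjusted p = 0.000149). Igf2bp1, which encodes an mRNA binding protein and not a binding protein of the ligand, was also lower (-0.48, SE 0.070, limma-trend adjusted p = 6.23e-06). Its relative Igf2bp2 was 0.13 higher on the log2 scale (SE 0.054, limma-trend adjusted p = 0.0467), a call that was lost whichever library was left out. Igfbp1, Igfals and Igfbpl1 were not analysed here.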

How the data were processed

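RNA-seq of 6 libraries, 3 Scr and 3 MICT1 KO, was grouped by the sample titles. According to the methods, strand-specific libraries were sequenced paired-end and aligned with Partek software to NCBI38/mm10, and the submitters' processing notes also name STAR. The counting model, its use of strand and the annotation are not given in the sources used here. The authors deposited a normalized signal per gene, not raw counts, and every listed value is above 0. No count test was run. limma-trend (limma 3.58.1, R 4.3.3) was applied to log2(value + 1) of the genes reaching 10 in 3 or more libraries, with Benjamini-Hochberg adjustment at 0.05 over all genes tested. The log2(value + 1) scale understates changes of low genes. CPM and RPKM used the sum of a library and the merged exon length of GENCODE M21 (found for 99% of genes), so RPKM understates genes expressed from short transcripts. The functions were tested on simulated data. The IGF genes and the lists were chosen with earlier results of these data known. Named genes were the 9 IGF genes, direct partners, the 3 largest changes called per list and the 5 genes most like Igf1. The methods call replicates biological, but the labels do not say what separates the libraries of a group. The p-values therefore rest on the spread between these libraries, which may be technical in part. limma-trend also borrows variance from all genes tested, so they do not measure the spread of 1 gene alone. The alternatives are given in the closing section.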

Additional observations from a re-analysis of the deposited data

How the results depend on the processing

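The 9 IGF genes were refitted with library size or trimmed mean of M values scaling, pseudocounts of 0.5 and 5, no filter, a maximum RPKM of at least 4, limma-voom, the replicate number as a block and each library left out. Of these 125 values, 122 kept their direction and their side of the threshold. The exceptions were Igf2r, which passed without KO replicate 1, and Igf1, which turned to -0.025 without Scr replicate 3 and to -0.010 without KO replicate 2, and which the RPKM filter removed. With each library left out Igf1 ranged from -0.025 to 0.19. The cause was not tested. The count of lower IGF genes was 4 throughout, and that of higher ones was 3, or 4 without KO replicate 1. With the replicate number as a block 3512 genes were lower and 3543 higher, against 3544 and 3569 without it, and the block changed no call among the 9 genes. Among the other genes named it ended the call of Igf2bp2 (adjusted p = 0.0633, limma-trend). Deviations of same-numbered libraries from their group means correlated at -0.024, -0.015 and 0.064. Those of differently numbered libraries correlated at between -0.043 and 0.056. Correlations this weak, with labels that do not say what separates the libraries, cannot settle whether the shared replicate numbers pair them. The scalings moved the median of all genes by less than 0.01. The RPKM filter left 8499 genes, of which 2853 were lower and 2618 higher, and with each library left out the counts were 3069 to 3343 and 3200 to 3313. With longest-transcript lengths the summed level of the binding protein genes was 341 RPKM in Scr and 413 RPKM in MICT1 KO. Igf1 and Igfbp6 had the lowest values of the 9 genes and the widest standard errors.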
